A study of Mus musculus with 6 samples.

Results

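The genes described here make cholesterol and fatty acids, sense sterols, or move cholesterol out of cells. They were taken from a list of 35 gene symbols, and a gene counted as measured when a probe set of the array was annotated to that symbol alone. Where a gene had several such probe sets, the one with the highest mean over the 6 arrays was used. By this rule 30 of the 35 genes were measured, of 22180 genes on the array in all. Acat2, Soat1 and Nr1h2 had no probe set of their own, and Idi1 and Scd2 were covered only by probe sets shared with other symbols. The expression of these 5 was not analysed here, though their promoters were searched where a window was given.

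The arrays came from whole spleens, 3 from mice overexpressing DX2 and 3 from control littermates, all 1 year old, with 1 Affymetrix array per spleen. DX2 is a splice form of AIMP2, lacking part of this scaffold of tRNA synthetases. The genotype of the DX2 group was CAG-rtTA; TRE DX2/+, in which the doxycycline-dependent activator rtTA is driven by CAG, a promoter active in most cell types. The genotype of the control group was 0; TRE DX2 /+, which has the same responsive DX2 transgene without the activator. Mice of both groups ate pellets containing doxycycline (6.25 mg/kg) from 8 weeks of age until 1 year, so doxycycline and the TRE DX2 transgene were shared by both groups. Only the DX2 group carried rtTA, so effects of the activator and of the protein it induces cannot be told apart. The labels call the samples biological replicates and do not say which of them shared a litter.

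Cells hold their cholesterol steady with a pair of opposing transcription systems. When sterols in the endoplasmic reticulum run low, SCAP escorts the SREBP factors to the Golgi, where they are cut and freed to switch on the enzymes of sterol and fatty acid synthesis, while the INSIG proteins hold SCAP back when sterols are plentiful. When oxidised cholesterol builds up, the LXR receptors, which pair with RXR, switch on export pumps such as ABCA1 and ABCG1, the ubiquitin ligase MYLIP that removes lipoprotein receptors, and SREBP-1c with its fatty acid enzymes. In the spleen, red pulp macrophages take up aged red cells with their membrane cholesterol and are rich in LXR targets, whereas dividing lymphocytes and erythroid precursors make sterols for new membrane.

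The promoters were searched for letters that these systems and their partner NF-Y are known to read. The windows of 4 genes are given because they belong to the first enzyme of the sterol pathway with a sterol response element and to 3 of the members with the clearest separation between the groups. Each window runs from 250 bases before to 50 bases after the transcription start, reads 5′ to 3′ on the gene's strand, and comes from RefSeq on build GRCm38.p6. Capitals mark TCACNCCAC, the element bound by SREBP, and CCAAT, the box bound by NF-Y, on either strand, so ATTGG is the box on the opposite strand. Hmgcs1 lies at chr13:119690101-119690400 on the plus strand, Sc5d at chr9:42264251-42264550 on the minus strand, Tmem97 at chr11:78550686-78550985 on the minus strand and Mylip at chr13:45389492-45389791 on the plus strand.
Hmgcs1: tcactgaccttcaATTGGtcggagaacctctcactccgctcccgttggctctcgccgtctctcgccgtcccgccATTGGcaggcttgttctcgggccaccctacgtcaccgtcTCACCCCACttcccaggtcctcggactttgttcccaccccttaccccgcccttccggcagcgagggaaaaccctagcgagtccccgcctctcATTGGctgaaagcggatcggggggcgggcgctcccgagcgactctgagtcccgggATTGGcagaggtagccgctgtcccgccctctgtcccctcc
Sc5d: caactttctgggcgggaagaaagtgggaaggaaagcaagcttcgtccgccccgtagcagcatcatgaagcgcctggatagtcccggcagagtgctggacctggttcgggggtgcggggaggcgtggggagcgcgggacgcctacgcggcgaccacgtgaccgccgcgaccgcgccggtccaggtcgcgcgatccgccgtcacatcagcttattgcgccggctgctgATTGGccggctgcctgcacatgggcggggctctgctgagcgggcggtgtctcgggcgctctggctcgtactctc
Tmem97: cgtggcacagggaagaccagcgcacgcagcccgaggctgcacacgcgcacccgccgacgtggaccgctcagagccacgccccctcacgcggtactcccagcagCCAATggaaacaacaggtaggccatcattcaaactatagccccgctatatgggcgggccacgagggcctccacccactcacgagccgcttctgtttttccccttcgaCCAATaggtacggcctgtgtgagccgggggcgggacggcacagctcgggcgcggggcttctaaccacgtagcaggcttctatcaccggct
Mylip: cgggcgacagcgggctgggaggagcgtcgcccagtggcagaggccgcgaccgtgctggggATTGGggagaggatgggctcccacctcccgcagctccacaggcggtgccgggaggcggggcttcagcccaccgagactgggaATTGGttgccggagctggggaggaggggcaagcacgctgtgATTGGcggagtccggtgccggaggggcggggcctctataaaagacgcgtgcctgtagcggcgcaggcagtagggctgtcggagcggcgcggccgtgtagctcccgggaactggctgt

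The CCAAT box was frequent in the sterol genes, and the other letters were rare or common everywhere. Of the 35 listed genes, 28 matched the promoter table, with 37 windows between them. Acat2, Idi1, Soat1 and Nr1h2, whose expression was not measured, are among the 28. Abcg1, Fdft1, Fdps, Scd1, Scd2, Sqle and Stard4 had no entry. A CCAAT box on either strand lay in 22 of the 37 windows (59.5%), against 37.41% of all 32851 windows of the same length. Counted by gene, 21 of the 28 members had one, against 41.1% of 27025 genes, and they included 12 of the 13 sterol enzymes with a window. The element TCACNCCAC lay in the window of Hmgcs1 alone (2.7% of member windows, against 1.24% of all windows), where the letters TCACCCCAC start 137 bases before the transcription start. Its shorter core CACNCCAC, which is contained in it, lay in windows of Hmgcs1, Acat2 and Insig1 (8.1% of member windows, against 6.24%). The general E box CANNTG, on which SREBP can also act, lay in 29 member windows (78.4%, against 72.31%). For the element of LXR with RXR, only the exact direct repeat of AGGTCA with 4 bases between the copies was searched. It lay in none of the 37 member windows and in 5 of all 32851 windows. So rare a match cannot tell whether members carry the element, since repeats with other letters were not searched. These matches describe letters in a window of this size only.

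The measurements are log2 expression values as the authors deposited them, so a difference of 1 is a doubling, and levels of different genes are not compared because each probe set has its own response. Array medians over the 22180 genes lay between 5.42 and 5.46, while over all probe sets, unnamed ones included, they were 5.12, 5.07 and 5.06 in DX2, against 5.20, 5.17 and 5.16 in control spleens. Precision is limited by having 3 arrays per group. By Xist and Y-linked transcripts control 1 and control 2 were female and the other 4 spleens male, which the labels do not state. Values among the male spleens (3 DX2, 1 control) are therefore given beside the members whose groups lay furthest apart. The probe set covering Aimp2 is also annotated to Eif2ak1, so the induced gene is no check of the groups. Spleen transcripts were present on every array, with the macrophage factor Spic at 9.32 to 9.67 in DX2 and 8.76 to 9.28 in control spleens, the sinus receptor Stab2 at 8.30 to 8.99 against 8.64 to 8.83, and the splenic factor Tlx1 at 5.89 to 6.60 against 6.09 to 6.25.

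Transcripts that mark cell types differed between the groups, and in whole tissue fewer cells of a type cannot be told apart from less RNA per cell. B cell markers averaged 8.03, 8.41 and 8.82 in DX2 1, 2 and 3, against 10.03, 9.78 and 10.18 in control 1, 2 and 3 (log2, mean of 11 markers). All 11 lay lower on every DX2 array than on any control array, where 11.2% of all genes did so. Of the 11, 5 fell at an adjusted p under 0.05 by limma (Cr2, Fcer2a, Ebf1, Cxcr5 and Cd79b), where 0.280% of all genes did. Red pulp macrophage markers averaged 9.30, 9.12 and 9.08 in DX2, against 8.69, 8.49 and 8.60 in control spleens. Of these markers 12 of 14 were higher in DX2 (85.7%, against 51.6% of all genes). The others, Slc40a1 and Hmox1, had lower means in DX2. Erythroid markers ran widely within the groups, at 9.67, 7.32 and 9.34 in DX2, against 6.26, 8.11 and 8.04 in control spleens, and cell cycle genes stood at 9.22, 8.53 and 9.09 against 7.38, 8.30 and 8.19. T cell markers were lowest in DX2 1 (6.73, 8.09 and 7.78 in DX2, against 8.15, 7.80 and 7.86 in control spleens), the array on which neutrophil (8.99) and platelet (9.0) markers were highest. Neutrophil markers stood at 7.15 and 7.32 on the other DX2 arrays, against 6.89, 7.24 and 7.83 in control spleens, and platelet markers at 6.78 and 7.33, against 6.80, 7.47 and 7.42. Pancreas markers stood at 3.96 to 4.19 in DX2 and 3.87 to 4.15 in control spleens.

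Over all members, the genes differed about as often and as far as other genes on the array. A gene counts as changed here when its adjusted p is under 0.05 (limma, Benjamini-Hochberg over all 22180 genes), which 70 genes met, 0.316% of all, 8 of them higher (0.0361% of all genes) and 62 lower (0.280%) in DX2 spleens. None of the 30 members met it. At an unadjusted p under 0.05 there were 6 members of 30, where 16.0% of all genes met that mark. The 3 DX2 values and the 3 control values did not overlap for 7 members (23.3%), where the share over all genes was 22.0%. Of these 7, Stard4, Tmem97, Nr1h3 and Abcg1 were higher and Sc5d, Srebf2 and Mylip lower in DX2 spleens. In all, 15 members were higher and 15 lower, with a median difference of -0.02 (0.01 over all genes) and a median size of 0.19 (0.15 over all genes), both on the log2 scale.

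**Figure D1:**
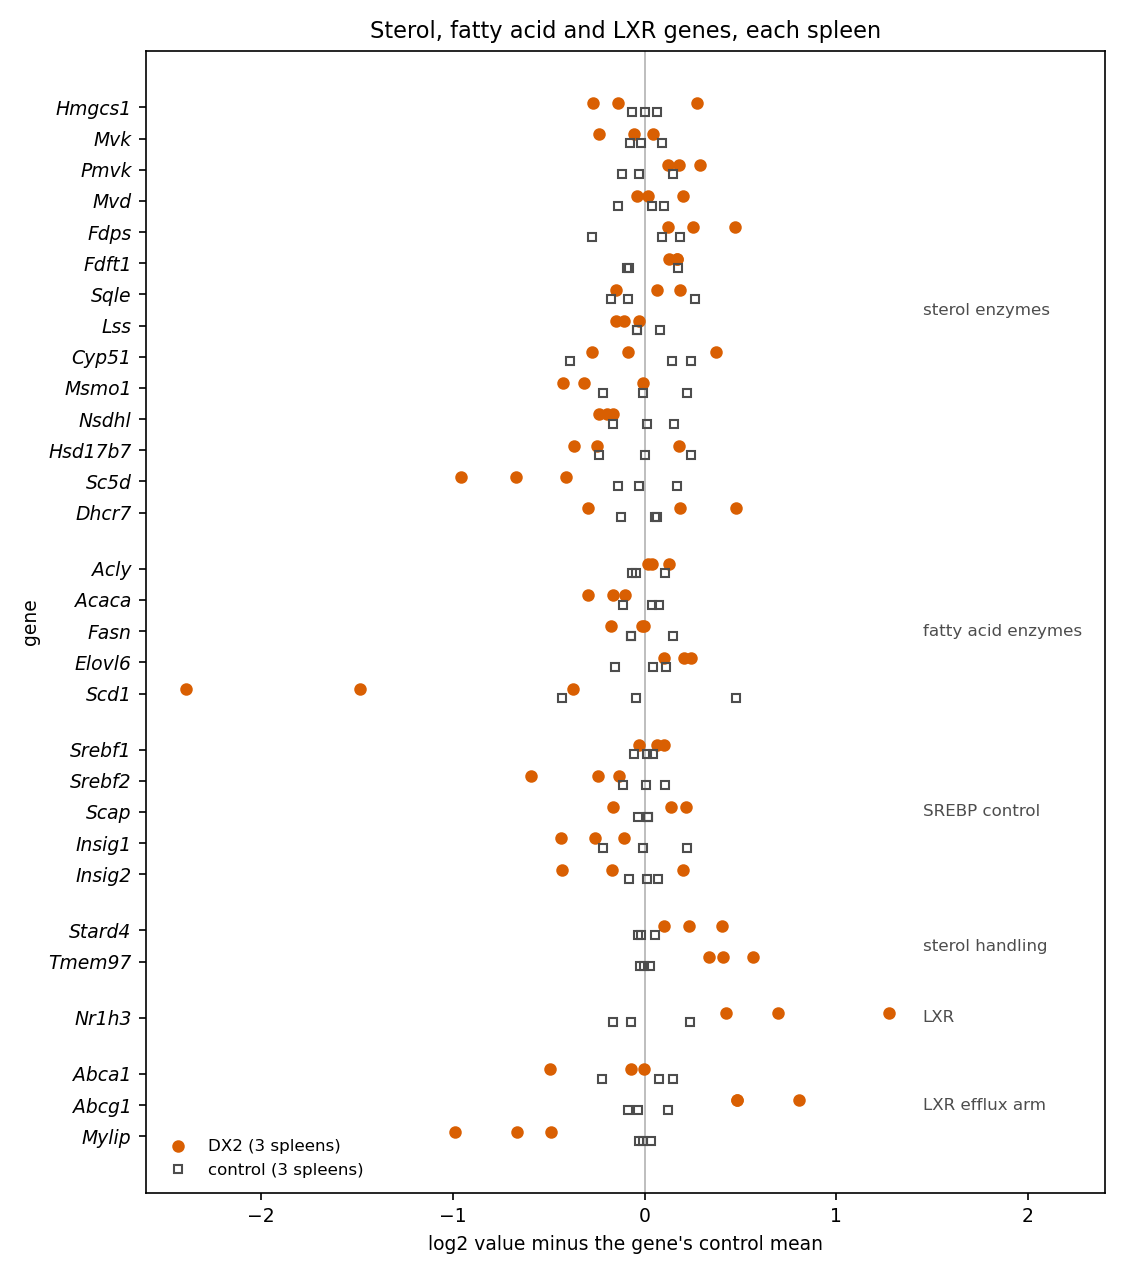
Log2 value of each of the 30 measured genes in each spleen, less the mean of the 3 control spleens for that gene (x axis, log2), with DX2 spleens as filled circles above and control spleens as open squares below in each row. Most sterol and fatty acid enzymes sit around 0 in both groups, while Scd1 in DX2 spleens spreads far to the left and the 3 DX2 values of Mylip, Sc5d, Nr1h3, Abcg1 and Tmem97 stand apart from control.

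Sterol synthesis genes stood close to the control level as a group. Of 16 listed enzymes 14 were measured, 7 of them higher and 7 lower in DX2 spleens, with a median difference of -0.02 and a range of -0.68 to 0.28 (log2). None met the threshold, and only 1, Sc5d, had groups that did not overlap (7.14%, against 22.0% of all genes). Hmgcs1, which makes HMG-CoA at the entry of the mevalonate pathway, had 7.42, 7.83 and 7.29 in DX2 spleens, against 7.49, 7.62 and 7.56 in control spleens. DX2 2 was above every control spleen and DX2 1 and DX2 3 below, so the groups overlap. The difference of -0.05 (SE 0.15, 95% interval -0.41 to 0.31, adjusted p = 0.920 by limma) was exceeded in size by that of 83.0% of all genes. The interval is limma's own and is not widened for the number of genes tested.

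The steps after HMG-CoA varied little. The mevalonate kinase Mvk differed by -0.09, the phosphomevalonate kinase Pmvk by 0.20 and the decarboxylase Mvd by 0.06 (log2, DX2 minus control). Fdps, which makes farnesyl diphosphate, had 6.65, 6.87 and 6.52 in DX2 spleens, against 6.12, 6.49 and 6.58 in control spleens. Its control values reach into the DX2 range, and the difference of 0.28 (SE 0.16) did not meet the threshold (adjusted p = 0.445 by limma). It was 0.14 without control 1, 0.18 without DX2 2 and 0.09 among the male spleens. Squalene synthase Fdft1 differed by 0.16, squalene epoxidase Sqle by 0.03 and the cyclase Lss, which closes the sterol rings, by -0.10. Cyp51, the first demethylase after ring closure, had 6.14, 6.60 and 5.95 in DX2 spleens, against 5.84, 6.47 and 6.37 in control spleens. Both groups covered nearly the same range, and their means differed by 0.00 (SE 0.22, 95% interval -0.51 to 0.52).

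Msmo1, Nsdhl and Hsd17b7, which act after Cyp51 on the remaining ring methyl groups, had lower means in DX2 spleens without passing. Msmo1 differed by -0.25 (95% interval -0.62 to 0.12; -0.14 without control 3, -0.16 without DX2 3 and -0.47 among the male spleens), Nsdhl by -0.20 (-0.47 to 0.08) and Hsd17b7 by -0.15 (-0.58 to 0.28), and the groups overlapped for all 3. The reductase Dhcr7, which acts at the end of the pathway, had 6.26, 7.03 and 6.74 in DX2 spleens, against 6.62, 6.43 and 6.61 in control spleens. DX2 1 was the lowest and DX2 2 the highest of all 6 spleens, and the difference was 0.12 (SE 0.19).

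Sc5d was the one measured sterol enzyme whose groups did not overlap. It encodes the sterol desaturase that puts a double bond into the ring system just before the last reduction. Its log2 value was 6.58, 7.13 and 6.87 in DX2 spleens, against 7.40, 7.51 and 7.71 in control spleens. All 3 DX2 spleens were below the lowest control spleen, with DX2 1 the lowest. Sc5d was 1.60-fold lower in DX2 spleens, a difference of -0.68 (SE 0.16, 95% interval -1.06 to -0.30) that missed the threshold (adjusted p = 0.118 by limma). Among the male spleens the difference was -0.85. A difference of this size or more was seen in 4.42% of all genes. With arrays weighted by how closely each followed its own group, Sc5d met the threshold (-0.70, adjusted p = 0.0481 by limma). Those weights were 0.635, 0.516 and 2.09 in DX2 spleens, against 1.06, 1.03 and 1.33 in control spleens. This was its lowest adjusted p among the alternatives, against 0.332 without control 3 (both by limma).

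Within each group the sterol enzymes often had their highest values in the same spleen. Of the 3 DX2 spleens, DX2 2 had the highest value for 10 of the 14 enzymes, among them Hmgcs1, Fdps, Cyp51, Msmo1 and Dhcr7, where it was the highest DX2 array for 40.2% of all genes. Of the control spleens, control 1 had the lowest value for 9 of the 14 (33.3% of all genes), and control 3 the highest for 7 (31.2% of all genes). The mean of the 14 enzymes was 6.37, 6.60 and 6.39 in DX2 spleens, against 6.40, 6.50 and 6.60 in control spleens, so the spread within each group exceeded the difference between the group means. DX2 2, often highest for these enzymes, had the lowest erythroid score of the DX2 spleens (7.32). Control 1, often lowest for them, had the lowest erythroid score of the control spleens (6.26). The spleen with the lowest erythroid score thus stood at opposite ends of the enzyme means in the DX2 and control groups. The part of cell make-up in the order of the enzymes was not tested.

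Fatty acid synthesis held the member with the largest difference and 4 others near the control level. Of 6 listed genes 5 were measured, 2 higher and 3 lower, with a median difference of -0.07 (log2). Acly, which supplies cytosolic acetyl-CoA, differed by 0.06 (95% interval -0.19 to 0.30), and Acaca, which carboxylates it, by -0.19 (-0.45 to 0.07). The synthase Fasn had 7.48, 7.64 and 7.65 in DX2 spleens, against 7.80, 7.58 and 7.58 in control spleens. Control 1 was the highest and DX2 1 the lowest, and the difference was -0.07 (SE 0.12). The elongase Elovl6 differed by 0.18 (-0.08 to 0.45).

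Scd1, the desaturase that makes monounsaturated fatty acids and a known target of both SREBP-1c and LXR, was lower in DX2 spleens by the widest margin of the members. It had 7.86, 6.95 and 8.97 in DX2 spleens, against 9.30, 8.91 and 9.82 in control spleens. DX2 1 and DX2 2 were below every control spleen, while DX2 3 was slightly above control 2, so the groups overlap. The means were 7.93 ± 1.01 in DX2 and 9.34 ± 0.45 in control spleens (log2, SD, n = 3 each), which is 2.67-fold lower in DX2. The difference of -1.41 (SE 0.48, 95% interval -2.53 to -0.30) was reached in size by 0.257% of all genes and did not meet the threshold (adjusted p = 0.217 by limma). It was -0.93 without DX2 2, -1.94 without DX2 3 and -1.89 among the male spleens.

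Scd1 is also abundant in fat, and the adipocyte markers were read beside it. The 9 measured markers averaged 4.84, 4.74 and 4.57 in DX2 spleens, against 5.31, 4.73 and 5.02 in control spleens. All 9 were lower in DX2 (51.6% of all genes were higher), none with groups that did not overlap and none past the threshold. Adiponectin (Adipoq) stood between 3.72 and 4.12 in DX2 and between 3.93 and 4.20 in control spleens. Car3, a carbonic anhydrase of fat and muscle, had 5.89, 4.99 and 4.74 in DX2 spleens, against 7.70, 4.98 and 7.13 in control spleens. Control 2 was the lowest control spleen for both Scd1 (8.91) and Car3 (4.98). Among the DX2 spleens, DX2 2 was lowest for Scd1 (6.95) and DX2 3 for Car3 (4.74). The part of fat in the Scd1 difference was not tested.

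**Figure D2:**
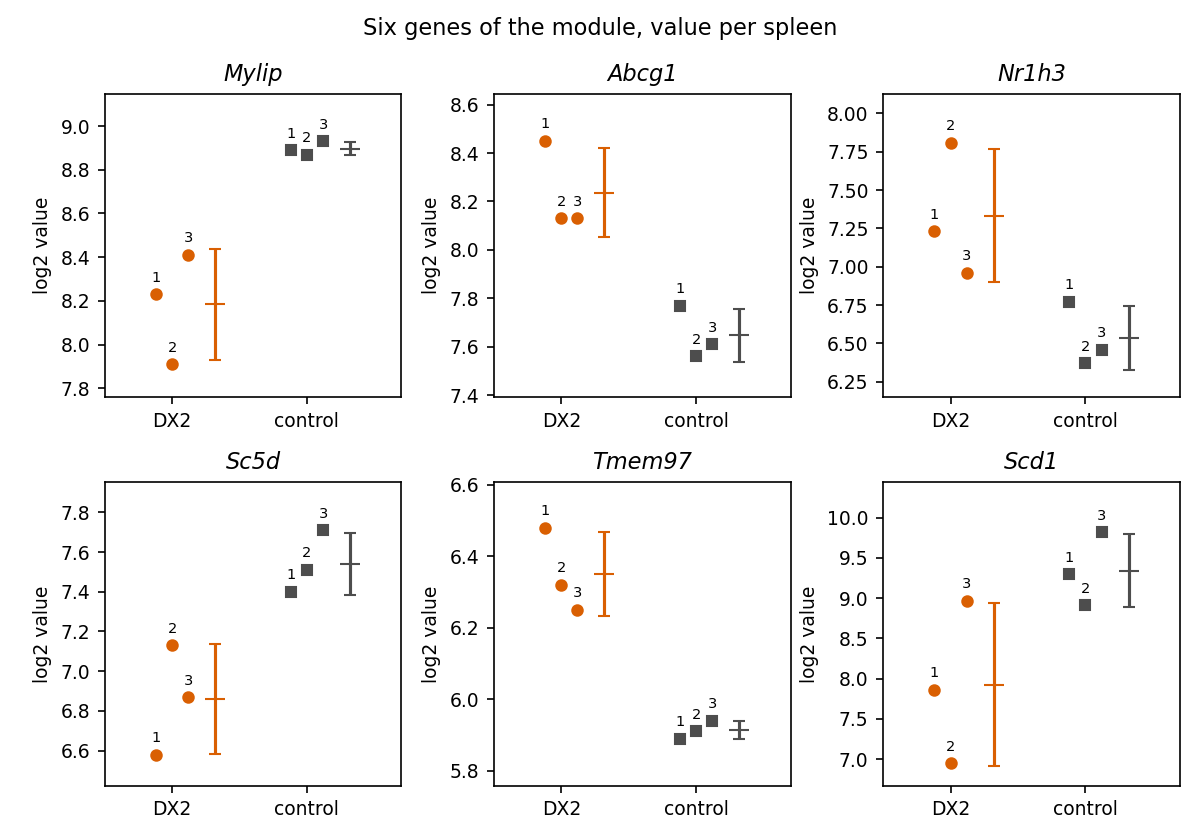
Log2 value in each spleen (y axis, a separate range for each gene) of Mylip, Abcg1, Nr1h3, Sc5d, Tmem97 and Scd1, with DX2 spleens as circles on the left and control spleens as squares on the right, numbered by replicate, and with the mean and SD of each group (n = 3) beside the points. The groups are apart for the first 5 genes and overlap for Scd1, where DX2 3 at 8.97 lies above control 2 at 8.91.

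The genes that control SREBP processing differed little, with the transcript of SREBP-2 somewhat lower. All 5 were measured, 2 higher and 3 lower, with a median difference of -0.13 (log2) and none past the threshold. Srebf2, which encodes the SREBP that drives sterol synthesis, had 7.96, 8.42 and 8.31 in DX2 spleens, against 8.44, 8.56 and 8.66 in control spleens. The groups did not overlap, although DX2 2 and control 1 nearly met, and the difference was -0.32 (SE 0.15, 95% interval -0.66 to 0.02, adjusted p = 0.338 by limma). It was -0.19 without DX2 1 and -0.43 among the male spleens. Srebf1, whose SREBP-1c form drives fatty acid synthesis, had 6.50, 6.63 and 6.59 in DX2 spleens, against 6.47, 6.57 and 6.54 in control spleens. Those groups overlapped almost wholly (0.05, 95% interval -0.19 to 0.28).

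Insig1, which retains SCAP in the endoplasmic reticulum and is itself an SREBP target, had 7.65, 7.80 and 7.47 in DX2 spleens, against 7.69, 7.90 and 8.13 in control spleens. DX2 2 was above control 1, so the groups overlap, and the difference was -0.27 (SE 0.15, adjusted p = 0.435 by limma), -0.16 without control 3 and -0.49 among the male spleens. Insig2, its relative, differed by -0.13 (95% interval -0.52 to 0.26). The escort protein gene Scap differed by 0.06 on the brighter of its probe sets and by 0.29 on the dimmer one.

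Both measured genes of sterol handling were higher on every DX2 array than on any control array, where 10.7% of all genes were so. Tmem97, the sigma-2 receptor of the endoplasmic reticulum and an SREBP target, had 6.48, 6.32 and 6.25 in DX2 spleens, against 5.89, 5.91 and 5.94 in control spleens. The control spleens lay within a narrow band below the lowest DX2 spleen. Tmem97 was 1.35-fold higher (0.44, SE 0.11, 95% interval 0.19 to 0.69), short of the threshold (adjusted p = 0.122 by limma), and the difference was 0.41 among the male spleens. Stard4, which carries sterols between membranes and is likewise an SREBP target, had 6.38, 6.08 and 6.21 in DX2 spleens, against 5.94, 5.96 and 6.03 in control spleens. The groups came within a short distance of each other at DX2 2 and control 3, and the difference was 0.25 (SE 0.12, 95% interval -0.02 to 0.52, adjusted p = 0.352 by limma). Tmem97 and Stard4 thus stood higher in the same spleens in which Srebf2 and Sc5d stood lower.

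On the LXR side, the receptor was higher in every DX2 spleen. Nr1h3, which encodes LXR alpha, the form found in macrophages, liver and fat, had 7.23, 7.81 and 6.96 in DX2 spleens, against 6.77, 6.37 and 6.46 in control spleens. DX2 2 was the highest, and the lowest DX2 spleen was above the highest control spleen. Nr1h3 was 1.74-fold higher, a difference of 0.80 (SE 0.22, 95% interval 0.27 to 1.32, adjusted p = 0.157 by limma), which 2.98% of all genes reached in size. It was 0.56 without DX2 2 and 0.87 among the male spleens.

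The 3 classical LXR targets in the list had differences of both signs. Abcg1, the pump that loads cholesterol onto HDL particles, had 8.45, 8.13 and 8.13 in DX2 spleens, against 7.77, 7.56 and 7.61 in control spleens. DX2 1 stood highest, and the groups were clear of each other. Abcg1 was 1.50-fold higher (0.59, SE 0.13, 95% interval 0.28 to 0.90, adjusted p = 0.107 by limma) and differed by 0.62 among the male spleens. Abca1, the pump that hands cholesterol to lipid-poor apolipoprotein, had 7.95, 7.46 and 7.88 in DX2 spleens, against 7.73, 8.03 and 8.10 in control spleens. DX2 2 was the lowest of all 6 and the others overlapped, with a difference of -0.19 (SE 0.17, 95% interval -0.58 to 0.20, adjusted p = 0.635 by limma) that was -0.04 without DX2 2.

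Mylip, the ubiquitin ligase that marks lipoprotein receptors for degradation, was lower in every DX2 spleen. It had 8.23, 7.91 and 8.41 in DX2 spleens, against 8.89, 8.87 and 8.93 in control spleens. The control spleens, of both sexes, lay within a narrow band and the DX2 spleens well below it. Mylip was 1.64-fold lower (-0.71, SE 0.14, 95% interval -1.05 to -0.38) and differed by -0.75 among the male spleens. It had the smallest adjusted p of the members (0.0925 by limma, over a range of 0.0543 to 0.678 in the alternatives), and was the only member under 0.1, where 1.78% of all genes stood. B cell markers were likewise lower in every DX2 spleen, at 8.03, 8.41 and 8.82, against 10.03, 9.78 and 10.18 in control spleens, and their part in the values of Mylip and Sc5d was not tested.

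**Figure D3:**
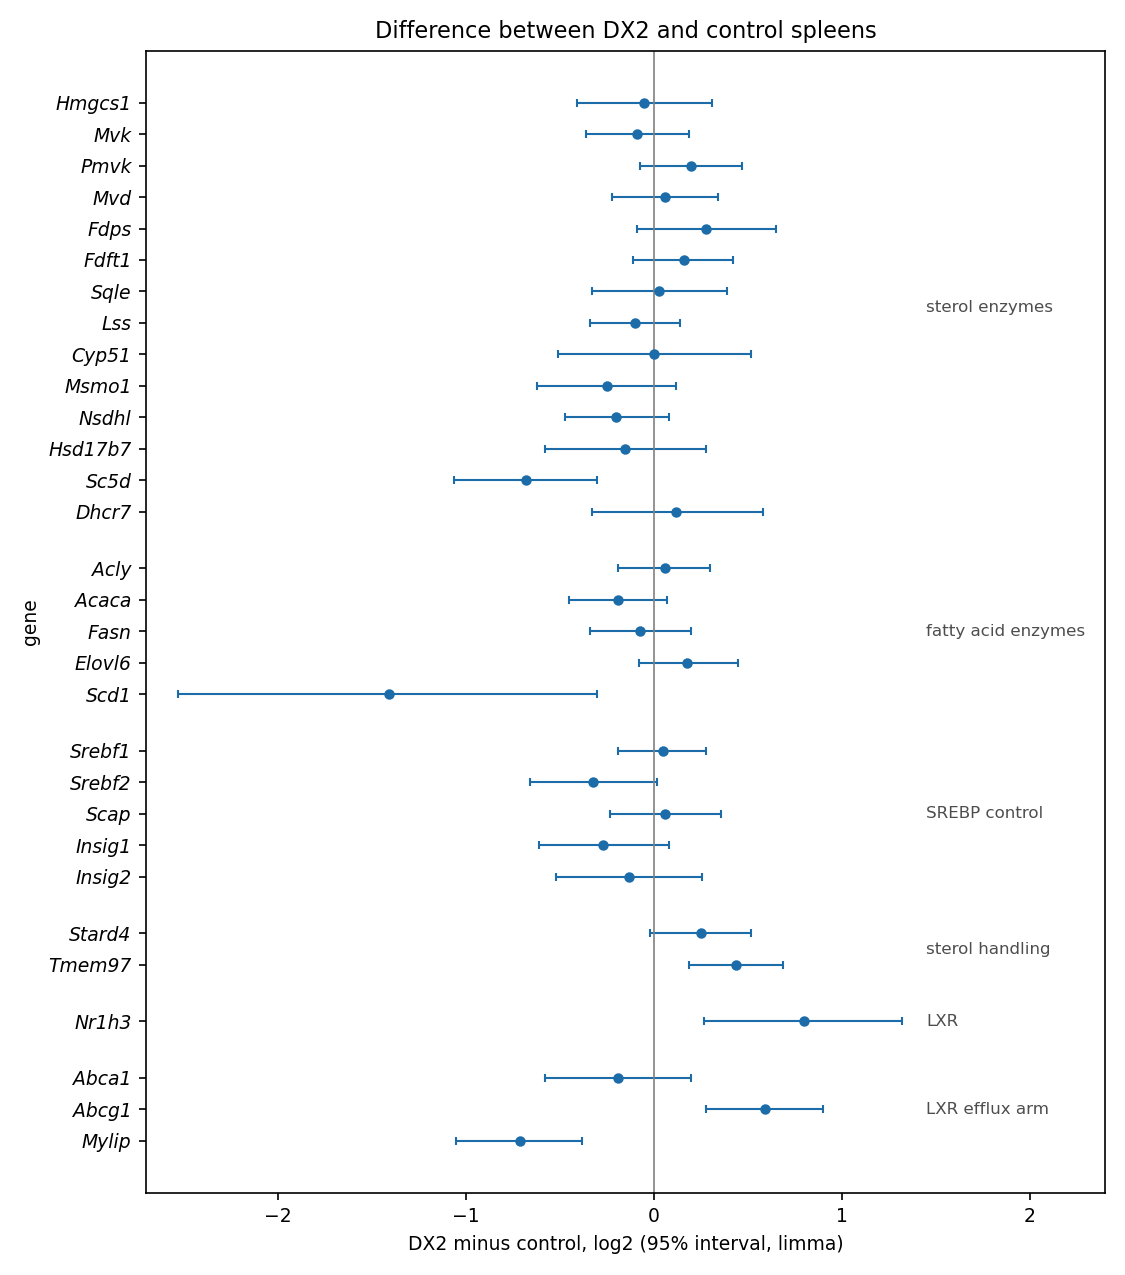
Difference between DX2 and control spleens (x axis, DX2 minus control, log2) for each of the 30 genes, with points for the limma estimate and bars for its 95% interval, from 3 spleens per group. The interval excludes 0 for 6 genes, of which Nr1h3, Abcg1 and Tmem97 are higher and Scd1, Sc5d and Mylip lower, and none of the 30 passed after adjustment over all genes.

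The synthesis arm and the efflux arm had the same mean difference over all 6 spleens, a result that moved with single spleens. Relative to the control mean, the 19 measured sterol and fatty acid enzymes averaged -0.19, -0.04 and -0.09 in DX2 spleens, against -0.07, -0.03 and 0.10 in control spleens (log2). The mean of Abca1, Abcg1 and Mylip was 0.04, -0.34 and -0.03 in DX2 spleens, against -0.04, -0.01 and 0.05 in control spleens. Synthesis less efflux was therefore -0.24, 0.29 and -0.07 in DX2 spleens, against -0.03, -0.02 and 0.05 in control spleens. The DX2 spleens lay on both sides of the control spleens, and the group means differed by 0.00, with an SD of 0.27 in DX2 and 0.05 in control spleens. The difference was 0.11 without DX2 1 and -0.15 without DX2 2. The efflux mean joins Abcg1, which was higher, with Mylip, which was lower, so it hides opposite values of its members. With Nr1h3 counted in the efflux arm the difference between the arms was -0.23, and with Scd1 left out of the synthesis arm, a choice made after seeing the data, it was 0.07.

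Most other LXR partners and targets had higher values in DX2 spleens. Of 16 listed, 14 were measured, 12 higher (85.7%, against 51.6% of all genes) and 2 lower in DX2 spleens. The median difference was 0.38 (log2), and some of the 12 differed little, down to 0.02. The groups did not overlap for 5, all higher, where 10.7% of all genes did so in that direction. Cd5l, a protein secreted by tissue macrophages that is also an LXR target, was the 1 gene of the list past the threshold. It had 8.92, 8.85 and 9.39 in DX2 spleens, against 7.51, 7.66 and 7.94 in control spleens. Every DX2 spleen was well above every control spleen. Cd5l rose 2.55-fold, by 1.35 (SE 0.18, 95% interval 0.93 to 1.77, adjusted p = 0.0422 by limma). The call was kept in 7 of 16 alternatives and lost in 9. Among the 9 were each fit without a control spleen, without DX2 1 or without DX2 3, and the fit with a sex term. The difference ranged from 1.12, among the male spleens, to 1.49.

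Pltp, the phospholipid transfer protein of plasma, had 8.89, 9.35 and 8.88 in DX2 spleens, against 8.44, 7.77 and 7.69 in control spleens. DX2 2 was highest and control 1 came nearest to the DX2 spleens. The difference was 1.07 (SE 0.23, adjusted p = 0.102 by limma), and 1.35 among the male spleens. The engulfment receptor Mertk differed by 0.58 (SE 0.16) and Rxra, the partner of LXR, by 0.54 (SE 0.17), neither past the threshold (adjusted p of 0.156 and 0.199 by limma), and Mertk by 0.36 among the male spleens. Cd5l and Mertk are also among the 14 red pulp macrophage markers, of which 12 were higher in DX2 spleens, 9 without overlap (10.7% of all genes were higher without overlap), and 1, Cd5l, past the threshold (0.0361% of all genes rose). The markers whose groups overlapped were Slc40a1 (-0.33), Hmox1 (-0.03), Adgre1 (0.19), Mrc1 (0.28) and Cd163 (0.17). The mean of the 14 markers was highest in DX2 1 (9.30, 9.12 and 9.08 in DX2, against 8.69, 8.49 and 8.60 in control spleens), as was Abcg1. Nr1h3, Pltp and Mertk were highest in DX2 2 and Cd5l in DX2 3. Whether more macrophage RNA accounts for the values of Nr1h3, Abcg1, Cd5l, Pltp and Mertk was not tested.

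Genes of cholesterol uptake and trafficking had values on both sides of control, often without overlap. Of 14 listed, 13 were measured, 8 higher and 5 lower, with a median difference of 0.17 (log2). For 8 of the 13 the groups did not overlap (61.5%, against 22.0% of all genes), 6 higher and 2 lower, though none met the threshold. Some of these gaps were small, as for Lipa, with a lowest DX2 value of 9.43 and a highest control value of 9.40. At an unadjusted p under 0.05 by limma there were 5 of the 13, where 16.0% of all genes met that mark. Scarb1, the HDL receptor, had 7.92, 7.73 and 8.38 in DX2 spleens, against 7.29, 6.94 and 7.40 in control spleens. All 3 DX2 spleens were above all control spleens, a 1.75-fold difference (0.80, SE 0.20, adjusted p = 0.122 by limma), or 0.62 among the male spleens. Gramd1a, which moves cholesterol from the plasma membrane to the endoplasmic reticulum, had 7.69, 7.49 and 7.54 in DX2 spleens, against 8.10, 8.02 and 8.21 in control spleens. Here all DX2 spleens were below all control spleens (-0.54, SE 0.11, adjusted p = 0.0955 by limma). The oxysterol-binding relative Osbpl1a differed by 0.59 (adjusted p = 0.191) and Lipa, the acid lipase that frees cholesterol in lysosomes, by 0.37 (adjusted p = 0.278, both by limma), or 0.15 among the male spleens.

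Enzymes that make or break oxysterols, the natural LXR ligands, were divided. All 6 were measured, 3 higher and 3 lower, with a median difference of -0.05 (log2) and none past the threshold. Hsd3b7, which acts on oxysterols on the way to bile acids, had 6.11, 6.16 and 6.02 in DX2 spleens, against 5.52, 5.61 and 5.77 in control spleens. The groups did not overlap, and the difference was 0.46 (SE 0.11, adjusted p = 0.122 by limma), or 0.32 among the male spleens. Cyp27a1, a mitochondrial sterol hydroxylase, differed by -0.38 (SE 0.17, adjusted p = 0.334 by limma), also without overlap, by -0.23 without control 3 and by -0.68 among the male spleens. Cyp39a1, an oxysterol hydroxylase, had 5.43, 4.13 and 7.14 in DX2 spleens, against 6.55, 6.56 and 7.44 in control spleens. DX2 2 and DX2 1 were below every control spleen and DX2 3 was among them, and the difference of -1.28 (SE 0.68) was -0.56 without DX2 2 and -2.07 without DX2 3.

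Other sterol enzymes and SREBP regulators stayed near the control level. Of 9 further sterol enzymes 8 were measured, 3 higher and 5 lower (median -0.05, log2), with Ggps1, which makes geranylgeranyl diphosphate, at -0.28 (adjusted p = 0.330) and Lbr, a sterol reductase that also anchors lamin B, at 0.45 (adjusted p = 0.410, both by limma). Ggps1 was at -0.18 without DX2 1, and Lbr at 0.26 without DX2 1, 0.71 without DX2 2 and 0.23 among the male spleens. Of 7 further SREBP regulators 5 were measured, 2 higher and 3 lower (median -0.14). Rnf145, a ubiquitin ligase of the sterol response, was at -0.34 (adjusted p = 0.386 by limma) and at -0.16 without DX2 2. None of these 13 genes met the threshold.

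Most other genes of fatty acid synthesis and storage had higher values in DX2 spleens. Of 27 listed, 24 were measured, 18 higher (75.0%, against 51.6% of all genes) and 6 lower, with a median difference of 0.17 (log2). For 5 of the 24 the groups did not overlap (20.8%, against 22.0% of all genes), and none met the threshold. Fads1, a desaturase of polyunsaturated fatty acids, had 7.37, 7.41 and 7.78 in DX2 spleens, against 6.72, 6.60 and 7.03 in control spleens. All DX2 spleens were above all control spleens (0.74, SE 0.16, adjusted p = 0.107 by limma), and the difference was 0.49 among the male spleens. Pgd, an enzyme of the pentose phosphate pathway that yields NADPH, differed by 0.41 (SE 0.10, adjusted p = 0.128 by limma). Mid1ip1, which activates acetyl-CoA carboxylase, differed by 0.33 on the probe set used, by 0.32 and -0.21 on its other probe sets, and by 0.14 on their mean. The elongase Elovl3 differed by -0.34 at low values (3.13 to 3.56 in DX2, against 3.65 to 3.82 in control spleens) and by -0.21 without DX2 3.

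**Figure D4:**
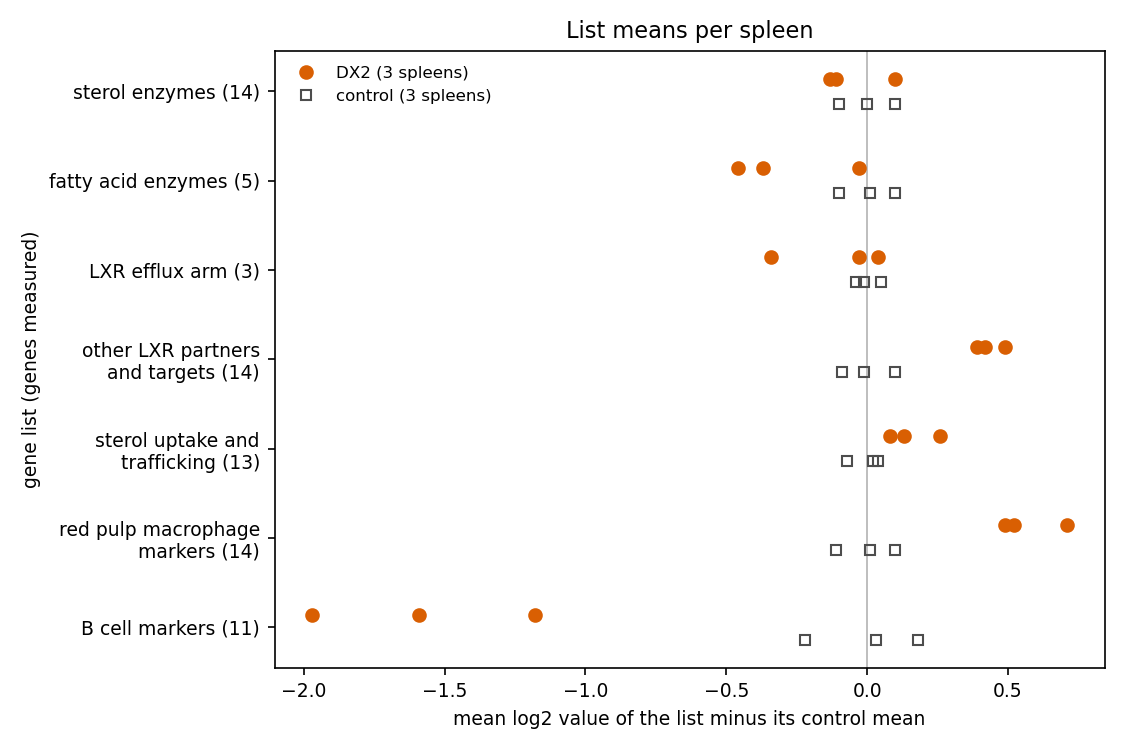
Mean log2 value of each gene list in each spleen, less the mean of the 3 control spleens (x axis, log2), with DX2 spleens as filled circles above and control spleens as open squares below in each row. Sterol enzymes and the LXR efflux arm overlap between the groups, other LXR partners and targets stand at 0.39 to 0.49 in DX2 spleens, red pulp macrophage markers at 0.49 to 0.71 and B cell markers at -1.97 to -1.18.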

How the data were processed

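Spleen RNA, extracted with Trizol and labelled with biotin per the labels' protocols, was hybridised to 1 Affymetrix array per sample. The authors deposited 1 table of log2 values for 41345 probe sets, made with RMA per the submitters' processing notes, with no missing values. RMA removes background, brings the arrays to a common distribution and joins each set's probes into 1 value. Version and annotation build were both not given in the sources used here. The log2 scale was inferred from the range of the values (0.771 to 13.3). Because RMA shrinks large differences, folds may be understated.

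The platform annotation gave 1 gene symbol to 23521 probe sets, several to 1814 and none to 16010. The 22180 genes with a probe set of their own were tested with limma 3.58.1 (R 4.3.3), by lmFit and then eBayes without covariate or filter on dim values, with all 6 arrays in the fit. P-values were adjusted by Benjamini-Hochberg across the 22180 genes, and 0.05 was the threshold. The test was also run on simulated data, whose results are not given here. Lists are described by counts, medians and means of log2 values per array, with no test. Promoter windows are RefSeq's on GRCm38.p6.

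Groups and replicate numbers came from the sample titles, and sex from transcripts. All members are named. Of each other list up to 4 measured genes with the smallest unadjusted p could be named, and any gene past the threshold was. The 6 genes plotted one by one are those with a difference of at least 0.4 in size, chosen after their values were seen. The members, the lists and the sex alternatives were chosen with earlier results of these data known. The 16 alternatives were a fit blocked by replicate number, fits with 1 array missing, removal of the dimmest 40% of genes, a second quantile normalization, arrays centred on their medians, genes read as the mean of their probe sets or from the most variable one, a mean-variance trend, array weights, a sex term and the male spleens alone.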

Additional observations from a re-analysis of the deposited data

How the results depend on the processing

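Of 480 differences (30 members in 16 alternatives) 27 changed sign, in 11 members whose main difference was at most 0.16 in size, while the other 19 members kept their direction throughout. Not all of the 480 could change. The block, the mean-variance trend and the filter on dim genes leave a difference as it was by construction. Among the members, the choice among probe sets could move only Scap. Of the other pathway genes named in the report, 18 were refitted and kept their direction in each alternative that gave a value (Elovl3 was removed by the filter on dim genes). The number of genes past an adjusted p of 0.05 (limma) was 70, and 1 with the replicate number as a block, 125 without the dimmest 40% of genes, 2 with centred arrays, 547 with array weights, 2 with a sex term, 0 among the male spleens, 394 at an adjusted p under 0.1, and 1 to 370 with 1 array left out (370 without DX2 2, 8 without DX2 1, 5 without control 3, and 1 without DX2 3, control 1 or control 2). Differences are identical by construction with a sex term and among the male spleens, where the lone control is assumed to vary like the DX2 spleens. Members past the threshold numbered 0 (6 at an unadjusted p under 0.05), and 1 with array weights (Sc5d, -0.70) and 1 at an adjusted p under 0.1 (Mylip). With array weights Gramd1a (-0.56), Scarb1 (0.96) and Fads1 (0.84) also passed. The median of the efflux arm was in each fit the value of Abca1, the middle of its 3 genes. It was -0.30 to -0.04 with 1 array left out, -0.04 being without DX2 2. Synthesis less efflux was -0.23 with Nr1h3 in the efflux arm. Centring moved the median of all genes to 0.10 and a second quantile normalization to 0.07, from 0.01. Centring gave Hmgcs1 0.05, Mvk 0.00 and Fasn 0.03, and the second normalization gave Mvk 0.01 and Lss 0.00. The sex term and the male spleens gave Fdft1 -0.02, Sqle -0.23, Cyp51 -0.14 and Fasn 0.01, and array weights gave Cyp51 -0.15. With 1 array left out, Hmgcs1 was -0.20 to 0.07, Mvd -0.01 to 0.11, Sqle -0.05 to 0.17, Cyp51 -0.19 to 0.14, Dhcr7 -0.05 to 0.33, Fasn -0.10 to 0.01, Scap -0.01 to 0.18 and Insig2 -0.30 to 0.02. The cause of these changes was not tested. Samples with the same number did not deviate together (r = -0.32, -0.14 and 0.07 for numbers 1, 2 and 3). Deviations from means of 3 spleens cannot tell whether a number stands for a shared litter or batch. DX2 2 deviated most like control 1 (0.33). The block left no member past the threshold, and it could not change a difference, since each number held 1 spleen of each group. Arrays give no read depth, and with 3 spleens per group the standard error of a gene's difference had a median of 0.14.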

Other observations

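Some genes of the fatty acid list stood out in a single spleen, and they were picked after their values were seen. Fabp5, a fatty acid carrier of macrophages and skin, had 8.57 in DX2 2 and 6.39 and 6.53 in DX2 1 and DX2 3, against 6.54 to 6.77 in control spleens (log2). Its 3 other probe sets were highest in DX2 2 as well (8.56, 7.83 and 5.99). The gene belongs to a family with near copies, so its probe sets are uncertain. Pparg, the nuclear receptor of fat storage, had 7.98 in DX2 1 and 6.62 and 6.29 in DX2 2 and DX2 3, against 6.10 to 6.32 in control spleens. Neutrophil (8.99) and platelet (9.0) marker scores were also highest in DX2 1, and their part was not tested. Scd1 and Cyp39a1 shared the order of the DX2 spleens, with DX2 2 lowest, DX2 1 next and DX2 3 highest.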
